A study of Mus musculus with 8 samples.

Results

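The receptor chains Ifnar1, Ifnar2, Ifngr1 and Ifngr2, the Janus kinases Jak1, Jak2 and Tyk2, and the inhibitor Socs1 were examined as the proteins that receive an interferon signal at the cell surface and switch it off again. They were chosen by symbol, and all 8 genes were found among the 24421 genes measured and were kept among the 12348 with enough reads to test. RNA was sequenced from osteoblastic cells released by enzymes from the calvaria (skull bones) of newborn C57BL/6 mice, which were either WT or Def6-/-. Cells were collected at day 0, or after 12 days (day 12) in osteogenic medium, which contains ascorbic acid and β-glycerophosphate. This gave 4 groups of 2 libraries: WT at day 0, WT at day 12, Def6-/- at day 0 and Def6-/- at day 12. All 8 libraries come from primary cultures that were not sorted, so that they can hold cells other than osteoblasts, and the labels list no interferon treatment for any group. The Def6-/- mice lack Def6 in every cell of the body, and WT littermates served as controls.

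Type I interferons act through a receptor made of Ifnar1 and Ifnar2, and the type II interferon, interferon gamma, acts through Ifngr1 and Ifngr2. The chains have no enzyme activity of their own and rely on Janus kinases: Tyk2 and Jak1 on the type I receptor, Jak1 and Jak2 on the type II receptor. The activated kinases phosphorylate STAT proteins, which enter the nucleus and, for type I interferon together with Irf9, turn on interferon-responsive genes, while Socs1, itself inducible by interferon, binds the receptor and kinases and blocks them.

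The libraries held between 2414856 and 3482835 reads on genes. Def6, checked first, had 147 and 112 reads in WT cells at day 0 and 186 and 137 at day 12. In Def6-/- cells it had 0 and 1 at day 0 and 2 in each library at day 12. Every library thus matched the genotype in its label. WT replicate 1 at day 0 stood apart from the other libraries. In this library 34.86% of reads did not map uniquely, against 21.45% to 26.57% in the other 7, and 19.4% of tested genes differed more than 2-fold from WT replicate 2 at day 0, against 3.68% between the Def6-/- libraries at day 0. Results of the 8 genes that use WT cells at day 0 are therefore given with and without it, and for other genes where a call or the size changed. Of 10 osteoblast markers 6 passed the test as higher at day 12 in each genotype, among them Alpl, Bglap and Ibsp. Of all tested genes 18.3% passed in WT and 16.8% in Def6-/- cells. Spp1, also on this list, had lower group means at day 12 in both genotypes. Of 14 tested macrophage markers, 12 rose in both genotypes. The sum of macrophage markers, which leaves out Ptprc and includes the untested Cd163, was between 188 and 414 normalized CPM at day 0. At day 12 it was between 3190 and 6340, and none of the summed markers was at 0 throughout. Normalized CPM are counts per 1000000 reads on genes after TMM scaling, which evens out differences in composition between libraries. Of 4 chondrocyte markers, Col2a1 fell and Col10a1 rose in both genotypes. Group means in WT and Def6-/- cells went from 2670 and 2690 to 901 and 698 normalized CPM for Col2a1. For Col10a1 they went from 6.65 and 6.36 to 35.9 and 39.2. Acan passed as lower in Def6-/- cells (113 to 36.1). In WT cells (106 to 43.8) it did not pass with all libraries, a call that changed without WT replicate 1 at day 0. Sox9 passed in neither genotype. Summed adipocyte markers went from at most 2.37 at day 0 to 13.8 and 17.8 in WT and 42.7 and 63.2 in Def6-/- cells at day 12. The part of these cell types in the results below was not tested. Of 8 lymphocyte markers 7 had no read in any library, and the eighth had 1. In such bulk samples, fewer cells of a type and less RNA per cell cannot be told apart.

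The levels of the 8 genes were compared per kb of exon, over all annotated exons merged, because a longer transcript collects more reads. The kinases held both ends of the order. Jak1, which serves both interferon receptors and many cytokine receptors, was highest, with a median of 36.0 normalized CPM per kb over the 8 libraries (range 32.9 to 59.4). Tyk2, its partner on the type I receptor, was lowest, with a median of 4.66 (2.93 to 5.85). Jak1 exceeded Tyk2 in every library, with a median ratio per kb of 9.22 (range 5.98 to 13.3).

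Between these ends lay Ifngr2 with a median of 25.4 normalized CPM per kb, Ifngr1 with 18.4, Ifnar1 with 16.8 and Ifnar2 with 13.4, followed by Jak2 with 10.6 and Socs1 with 6.83. Among neighbors in this order, the ranges over the libraries did not overlap only for Jak2 and Socs1. Merged exons can be longer than the transcript a cell makes, which lowers the level per kb. For Socs1 they came to 2908 bases, and other lengths were not tried, so its place below Jak2 may depend on the annotation. Compared within each library, Jak2 was above Socs1 and Ifngr2 above Ifngr1 in all 8. The order of the other neighbors changed between libraries. Jak1 was above Ifngr2, Ifnar2 above Jak2 and Socs1 above Tyk2 in 7 of 8, and Ifnar1 above Ifnar2 in 6. Ifngr1 was above Ifnar1 in 4 of 8 libraries. Jak1 stood above 91.6% and Tyk2 above 40.7% of the 11925 tested genes with a known exon length. The chains of each receptor were close to each other. Ifnar1 was 1.25 times Ifnar2 per kb (median; 0.943 to 1.42), and Ifngr2 was 1.41 times Ifngr1 (1.17 to 1.73) and above it in all 8 libraries.

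**Figure D1:**
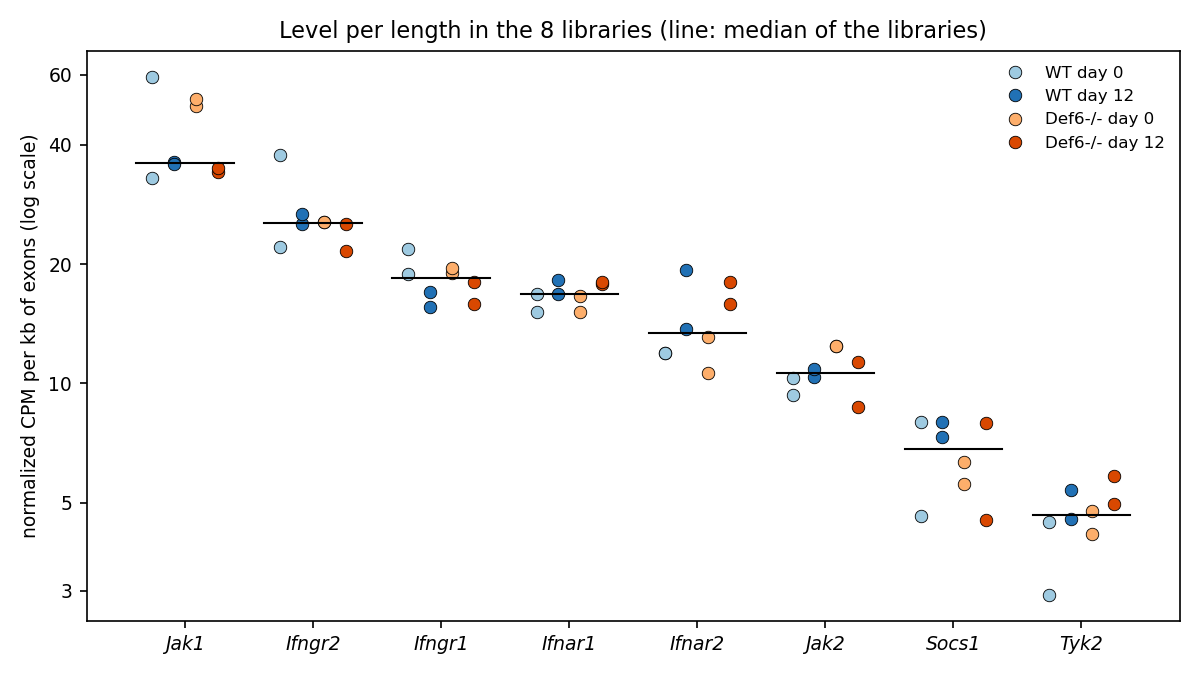
Level per length of the 8 genes, in normalized CPM per kb of exon on a log scale, with a point for each of the 8 libraries colored by group and a line at the median over libraries. Jak1 lies highest (median 36.0) and Tyk2 lowest (4.66), and the points of most neighboring genes overlap.

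The first question was whether the machinery itself changed during osteogenic culture or with the loss of Def6. By the tests used here it was not seen to. In WT cells 0 of the 8 genes passed the test for day 12 against day 0 (limma, a linear model fitted across all genes, adjusted p under 0.05), where 18.3% of the 12348 tested genes did. In Def6-/- cells 0 of 8 passed, where 16.8% of all tested genes did. The same 0 of 8 held between genotypes by the study's own rule, an unadjusted p under 0.05 together with a fold change above 1.2, which was met by 2.3% of tested genes at day 0 and by 1.4% at day 12, and for the interaction of genotype and day, where 1.12% met it. No comparison had a member with an unadjusted p under 0.05, and the quasi-likelihood test of edgeR also called 0 of 8 in each. After adjustment, 1 gene of all those tested (Def6) differed between genotypes at either day.

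The sizes of change were small as well. The median absolute log2 fold change of the 8 genes from day 0 to day 12 was 0.30 in WT cells, against 0.43 for all tested genes, and 0.23 in Def6-/- cells, against 0.39. Between genotypes it was 0.12 at day 0, against 0.22, and 0.08 at day 12, against 0.13. The 95% intervals reached from -0.87 to 1.09 (log2) over the genes for WT days and from -1.14 to 1.03 for Def6-/- days. Between genotypes they reached from -0.81 to 0.87 at day 0 and from -1.11 to 0.70 at day 12.

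**Figure D2:**
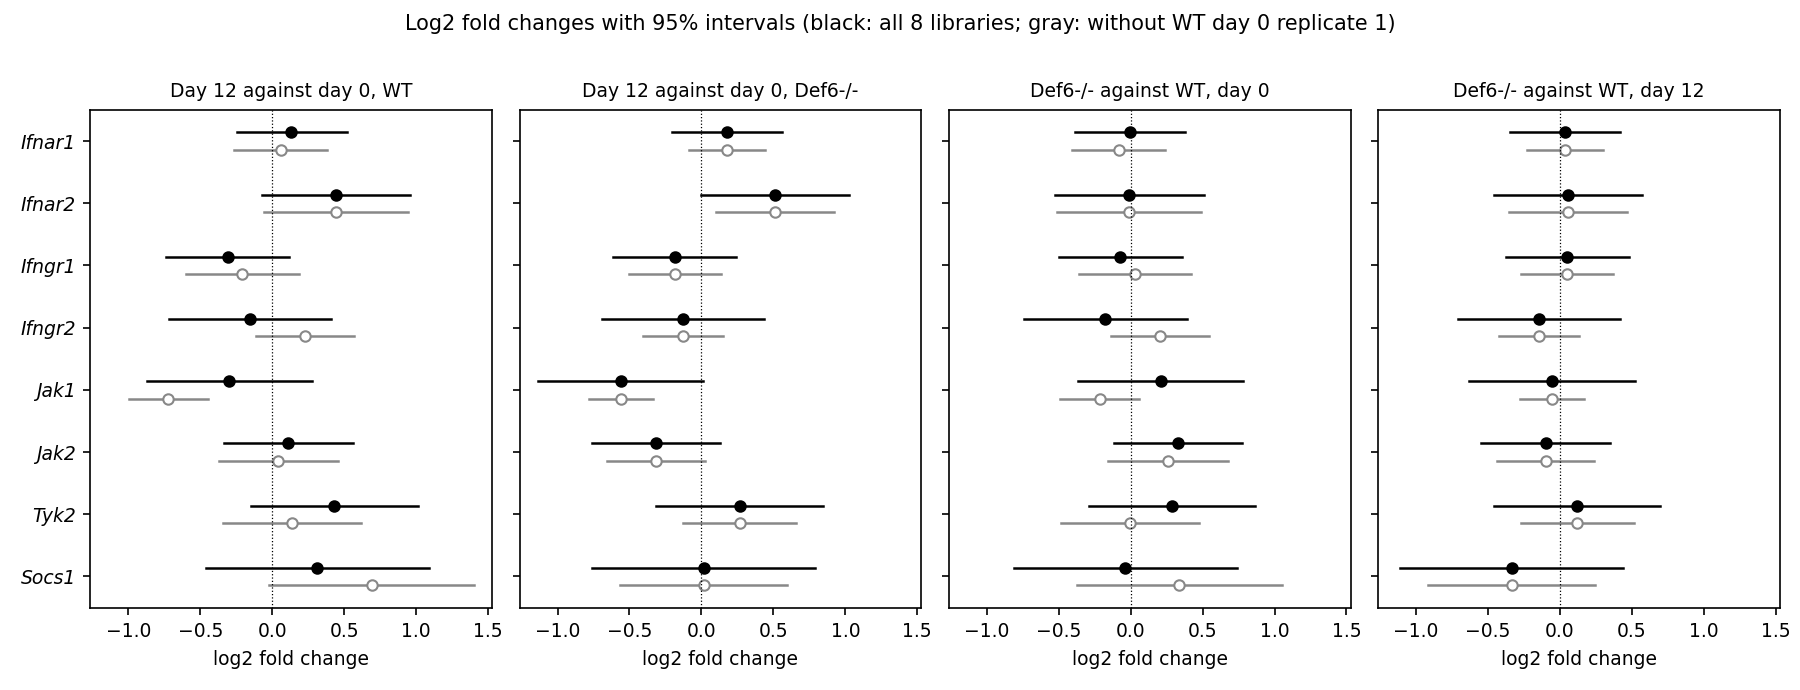
Log2 fold change (x axis) of each gene in 4 comparisons, with 95% intervals, from all 8 libraries (black) and without WT replicate 1 at day 0 (gray). All black intervals include 0, and without that library the Jak1 intervals for both day comparisons, at -0.72 in WT and -0.56 in Def6-/- cells, lie below 0.

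The type I receptor chains had higher values at day 12 in both genotypes, by amounts that did not pass the test. Ifnar1, the chain that carries Tyk2, was at 89.7 and 99.6 normalized CPM in WT cells at day 0 and at 108 and 99.7 at day 12. Def6-/- libraries held 89.5 and 98.8 at day 0 and 106 and 107 at day 12. The day 12 libraries were above the day 0 libraries in each genotype, but in WT cells by a margin no larger than 99.7 against 99.6. The log2 fold change was 0.13 (standard error 0.17, adjusted p = 0.620 by limma) in WT and 0.18 (0.17, adjusted p = 0.547) in Def6-/- cells, and the WT value was 0.06 without WT replicate 1 at day 0.

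Ifnar2, the chain that binds interferon with high affinity and carries Jak1, was at 39.5 and 39.6 normalized CPM in WT cells at day 0 and at 64.3 and 45.6 at day 12. In Def6-/- cells it was at 35.4 and 43.6 at day 0 and at 59.9 and 52.9 at day 12. Day 12 was higher without overlap in both genotypes, and the WT libraries at day 12 were far apart from each other. With all libraries Ifnar2 had the highest log2 fold change of the 8 genes, 0.45 in WT (95% interval -0.07 to 0.96, adjusted p = 0.213 by limma; 0.44 without WT replicate 1 at day 0) and 0.51 in Def6-/- cells (-0.01 to 1.03, adjusted p = 0.172). In a fit of the Def6-/- libraries alone it passed the test (log2 fold change 0.50, adjusted p = 0.0478).

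Between genotypes the type I receptor chains lay close together. The log2 fold change of Def6-/- against WT cells was -0.01 for Ifnar1 (-0.39 to 0.38) and -0.01 for Ifnar2 (-0.53 to 0.51) at day 0. Without WT replicate 1 the day 0 values were -0.08 and -0.01. At day 12 it was 0.03 for Ifnar1 (-0.35 to 0.42) and 0.06 for Ifnar2 (-0.46 to 0.57). With CPM as deposited, both day 0 values were 0.13, on a scale on which the median of all genes was at 0.0987.

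Both type II receptor chains had lower group means at day 12, by amounts that did not pass the test. Ifngr1, the chain that binds interferon gamma, was at 62.0 and 53.7 normalized CPM in WT cells at day 0 and at 48.5 and 44.4 at day 12. The Def6-/- values were 54.2 and 55.5 at day 0 and 45.2 and 51.2 at day 12. The groups did not overlap in either genotype, and the log2 fold changes of -0.31 in WT (adjusted p = 0.294 by limma) and -0.19 in Def6-/- cells (adjusted p = 0.573) did not pass the test. The WT value was -0.21 without WT replicate 1.

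Ifngr2, which joins the receptor and carries Jak2, depended on the WT library that stood apart. It was at 142 normalized CPM in that library and at 83.4 in replicate 2 of the same group, against 95.0 and 100 in WT cells at day 12. Def6-/- libraries held 96.3 and 96.4 at day 0 and 95.2 and 81.5 at day 12, lower at day 12 without overlap. The log2 fold change in WT cells from day 0 to day 12 was -0.16 with all libraries and 0.23 without WT replicate 1, and in Def6-/- cells it was -0.13 either way. Def6-/- against WT cells at day 0 likewise gave -0.18 and 0.21 without that library. For Ifngr1 these values were -0.07 and 0.03. At day 12, where that library plays no part in the means, the genotypes differed by 0.05 for Ifngr1 (-0.38 to 0.48) and by -0.15 for Ifngr2 (-0.71 to 0.42).

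Of the kinases, Jak1 was at 238 and 429 normalized CPM in WT cells at day 0 and at 261 and 258 at day 12. In Def6-/- cells it was at 362 and 377 at day 0 and at 247 and 253 at day 12. The 4 libraries at day 12 lay between 247 and 261 normalized CPM, and 3 of the 4 at day 0 were far above them, the exception being WT replicate 1.

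With all libraries the log2 fold change of Jak1 from day 0 to day 12 was -0.30 in WT (95% interval -0.87 to 0.28, adjusted p = 0.460 by limma) and -0.56 in Def6-/- cells (-1.14 to 0.01, adjusted p = 0.177). Without WT replicate 1 at day 0, Jak1 fell in both genotypes, by 0.72 on the log2 scale in WT (standard error 0.125, adjusted p = 0.00139) and by 0.56 in Def6-/- cells (0.102, adjusted p = 0.00127). It was the 1 member of 8 that passed in each of these fits, where 25.1% of all tested genes passed in WT and 34.8% in Def6-/- cells. Leaving out WT replicate 2 in its place gave 0.13 in WT cells, so that the direction in WT rests on which of the 2 libraries is kept. The genotype difference at day 0 turned in the same way, from 0.21 (-0.37 to 0.78) with all libraries to -0.22 (-0.49 to 0.06) without WT replicate 1.

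Jak2 was at 47.0 and 51.9 normalized CPM in WT cells at day 0 and at 52.2 and 54.9 at day 12, slightly higher without overlap. Its Def6-/- values were 62.4 and 62.3 at day 0 and 56.7 and 44.0 at day 12, lower without overlap. The log2 fold changes were 0.11 in WT (adjusted p = 0.730 by limma; 0.04 without WT replicate 1 at day 0) and -0.32 in Def6-/- cells (adjusted p = 0.330). At day 0 the Def6-/- libraries were the higher, by 0.33 on the log2 scale (-0.12 to 0.78, adjusted p = 0.908) and by 0.26 without WT replicate 1. At day 12 the genotypes overlapped.

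Tyk2, on the lowest level of the 3 kinases, was at 20.1 and 30.7 normalized CPM in WT cells at day 0 and at 31.3 and 36.8 at day 12. Cells without Def6 were at 32.7 and 28.6 at day 0 and at 34.1 and 40.1 at day 12. Day 12 was above day 0 in both genotypes. The log2 fold change was 0.43 in WT (adjusted p = 0.277 by limma) and 0.27 in Def6-/- cells (adjusted p = 0.547), and in WT it was 0.14 without the library that stood apart. Def6-/- against WT cells gave 0.29 at day 0 (-0.29 to 0.86), which was -0.01 without that library, and 0.12 at day 12 (-0.46 to 0.70). The annotation places an antisense transcript over 554 exon bases of Tyk2, and since the strand setting of the counting is not given in the sources used here, reads of the pair cannot be told apart.

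The kinases of the type I receptor were further apart in level at day 0 than at day 12. The ratio of Jak1 to Tyk2 per kb was 11.2 and 13.3 in WT and 10.5 and 12.5 in Def6-/- cells at day 0, and 7.94 and 6.66 in WT and 6.89 and 5.98 in Def6-/- cells at day 12. All 4 libraries at day 0 were above all 4 at day 12, WT replicate 1 included, since Jak1 and Tyk2 were both low in it. This ratio was looked at after the values of both genes were known and was not tested.

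**Figure D3:**
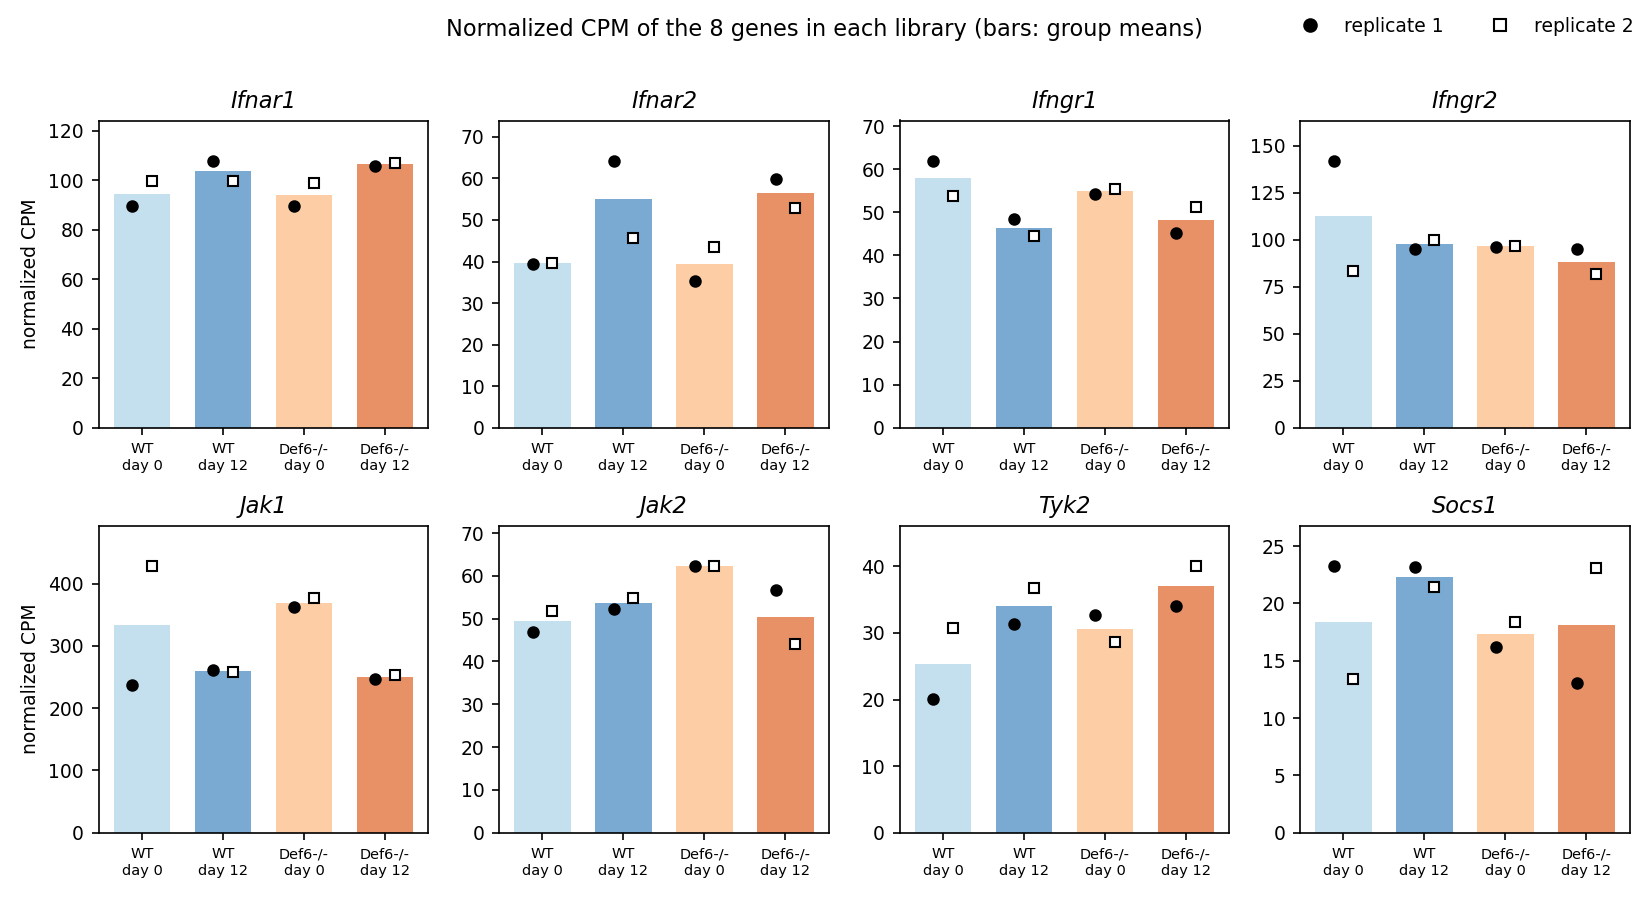
Normalized CPM of each gene by group, with bars from 0 at the mean of 2 libraries and a marker for each library. WT replicate 1 at day 0 lies away from replicate 2 for Ifngr2 (142 and 83.4), Jak1 (238 and 429), Tyk2 (20.1 and 30.7) and Socs1 (23.3 and 13.4).

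Socs1, the inhibitor, had few reads, between 32 and 81 in a library. It was at 23.3 and 13.4 normalized CPM in WT cells at day 0 and at 23.2 and 21.4 at day 12. The Def6-/- libraries were at 16.2 and 18.4 at day 0 and at 13.1 and 23.1 at day 12. The groups overlapped in all 4 comparisons, and the replicates of WT at day 0, and those of Def6-/- at day 12, lay further apart than the highest and the lowest group mean (22.3 and 17.3).

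The log2 fold change of Socs1 from day 0 to day 12 was 0.31 in WT (95% interval -0.46 to 1.09, adjusted p = 0.564 by limma) and 0.02 in Def6-/- cells (-0.76 to 0.79, adjusted p = 0.985). Without WT replicate 1 at day 0, the value in WT was 0.69 (-0.02 to 1.40, adjusted p = 0.146). Def6-/- against WT cells gave -0.04 at day 0 (-0.81 to 0.74), which was 0.34 without WT replicate 1, and -0.34 at day 12 (-1.11 to 0.44), which are the widest intervals of the set. Socs3, a related inhibitor that acts on the receptors of the interleukin-6 family, gave 0.10 in WT and 0.06 in Def6-/- cells from day 0 to day 12, and did not pass the test either.

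The stretches before the start sites were read to see which of the 8 genes carry the letters bound by the factors below the kinases. A pair of cores was searched on both strands over 250 bases: GAAANNGAA, the core of the interferon-stimulated response element, and TTCNNNGAA, the core of the gamma-activated site bound by STAT dimers. Of 32851 mouse promoters in RefSeq (GRCm38.p6), 7.13% held the first and 7.02% the second. All 8 genes had an entry. Among them Socs1 held the first, in 2 copies that overlap by 3 bases and start 83 and 77 bases before the start site, and Ifnar2 held the second, 214 bases before. The other 6 held neither. These 2 promoters are shown with that of Stat2, a mediator below the kinases that rose with culture. They lie at chr16:10785537-10785786 (Socs1, minus strand), chr16:91372533-91372782 (Ifnar2, plus strand) and chr10:128270248-128270497 (Stat2, plus strand), are written 5′ to 3′ on the strand of the gene, and have the matches in capitals.
Socs1: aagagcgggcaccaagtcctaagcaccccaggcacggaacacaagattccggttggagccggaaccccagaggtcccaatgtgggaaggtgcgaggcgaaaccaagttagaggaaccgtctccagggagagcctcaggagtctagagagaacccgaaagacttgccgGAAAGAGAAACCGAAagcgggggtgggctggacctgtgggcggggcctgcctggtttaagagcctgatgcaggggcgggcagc
Ifnar2: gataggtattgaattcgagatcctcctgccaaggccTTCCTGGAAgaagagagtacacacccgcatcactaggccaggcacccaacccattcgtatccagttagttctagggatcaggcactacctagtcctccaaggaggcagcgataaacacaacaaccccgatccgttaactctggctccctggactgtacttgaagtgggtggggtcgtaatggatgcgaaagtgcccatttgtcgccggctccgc
Stat2: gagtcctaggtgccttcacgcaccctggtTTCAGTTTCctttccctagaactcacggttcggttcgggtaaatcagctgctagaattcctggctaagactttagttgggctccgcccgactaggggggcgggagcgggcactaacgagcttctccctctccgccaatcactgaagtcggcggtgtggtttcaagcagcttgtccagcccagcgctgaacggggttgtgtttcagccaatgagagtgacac
In Stat2 the response element core was read on the opposite strand, 221 bases before the start site. A match describes letters and is not a measured binding site. The pairing of letters and behavior was not uniform. For day 12 against day 0 Stat2 passed the test, and Socs1 with its overlapping copies did not. Irf9, which passed, held neither core in the RefSeq windows before its start sites. Irf1, which passed in WT cells, held the second. Of 8 listed interferon-responsive genes with an entry, 6 held the first core (Cxcl10, Cxcl9, Ifit1, Ifit3, Isg15 and Rsad2), against 7.13% of all promoters. Those of the 6 that were tested rose in WT cells. Irf7 and Oasl2, which rose in both genotypes, held neither. The list was made of genes that respond to interferon, so its share with the first core was not a test. The 7.13% counts promoter entries and not genes.

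Whether the libraries of compared groups overlapped was counted for the whole set. Between day 0 and day 12 in WT cells, 5 of 8 genes did not overlap (Ifnar1, Ifnar2, Jak2 and Tyk2 higher, Ifngr1 lower), against 55.9% of all tested genes. In Def6-/- cells 7 of 8 did not overlap (Ifnar1, Ifnar2 and Tyk2 higher, Ifngr1, Ifngr2, Jak1 and Jak2 lower), against 67.7%. Between genotypes 1 of 8 did not overlap at day 0 (Jak2, higher in Def6-/- cells), against 22.6%. At day 12 it was 1 of 8 (Jak1, lower in Def6-/- cells), against 32.7%. For Jak1 this was a difference of -0.06 on the log2 scale, which turned to 0.02 with CPM as deposited.

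Interferon genes were almost without reads. Of 15 listed, which were Ifnb1, Ifng, several alpha interferons, Ifne, Ifnk and Ifnz and, as ligands of a receptor that holds Il10rb, the lambda interferons Ifnl2 and Ifnl3, 13 had 0 reads in all 8 libraries. A count of 0 allows up to 3 reads in a library, which is between 0.861 and 1.24 CPM of reads on genes, counting error only. Reads that did not map uniquely were not counted on genes. Similar copies among the alpha and the lambda interferons may lose reads in this way, so for them this limit covers uniquely mapped reads only. Ifnb1 had 2 reads in Def6-/- replicate 1 at day 12, and Ifnz had 1 read in WT replicate 1 and 1 in Def6-/- replicate 2 at day 0. No ligand passed the filter on low values, and a difference between groups was not detectable at this depth.

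Below the kinases, some genes passed the test from day 0 to day 12. Of 7 tested genes (Stat2, Stat3, Stat5a, Stat5b, Stat6, Irf9 and Irf1), 3 rose in WT cells and 2 in Def6-/- cells, where 18.3% and 16.8% of all tested genes passed. The median log2 fold change of these 7 was 0.83 in WT (0.51 without WT replicate 1 at day 0) and 0.33 in Def6-/- cells, against 0.12 and -0.06 for the 8 receptor, kinase and inhibitor genes. Jak3, the remaining Janus kinase, gave 0.83 and 0.53 and did not pass. Stat2, which serves the type I receptor, rose by 1.99 on the log2 scale in WT (adjusted p = 0.00366 by limma; 1.59 without WT replicate 1) and by 1.18 in Def6-/- cells (adjusted p = 0.0384).

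Irf9, which binds DNA in a complex with Stat2, rose by 1.65 in WT (adjusted p = 0.00420 by limma; 1.35 without WT replicate 1) and by 0.96 in Def6-/- cells (adjusted p = 0.0472). At day 12 it was also lower in Def6-/- than in WT cells, at 47.6 and 39.7 against 67.2 and 70.8 normalized CPM, a log2 fold change of -0.65 that met the unadjusted rule and not the adjusted test (adjusted p of 1). Irf1, a factor induced by interferon gamma, rose in WT cells by 0.86 (adjusted p = 0.0404). Its log2 fold change in Def6-/- cells, 0.33, did not pass the test, and the difference between the genotypes, -0.53, did not pass either. Stat3, Stat5b and Stat6 did not pass the test, with log2 fold changes of at most 0.29 in either genotype. Without WT replicate 1 at day 0, the calls in WT cells stayed the same. Stat5a then also passed as higher at day 12 in Def6-/- cells. Stat2 then met the unadjusted rule as lower in Def6-/- than in WT cells at day 12.

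**Figure D4:**
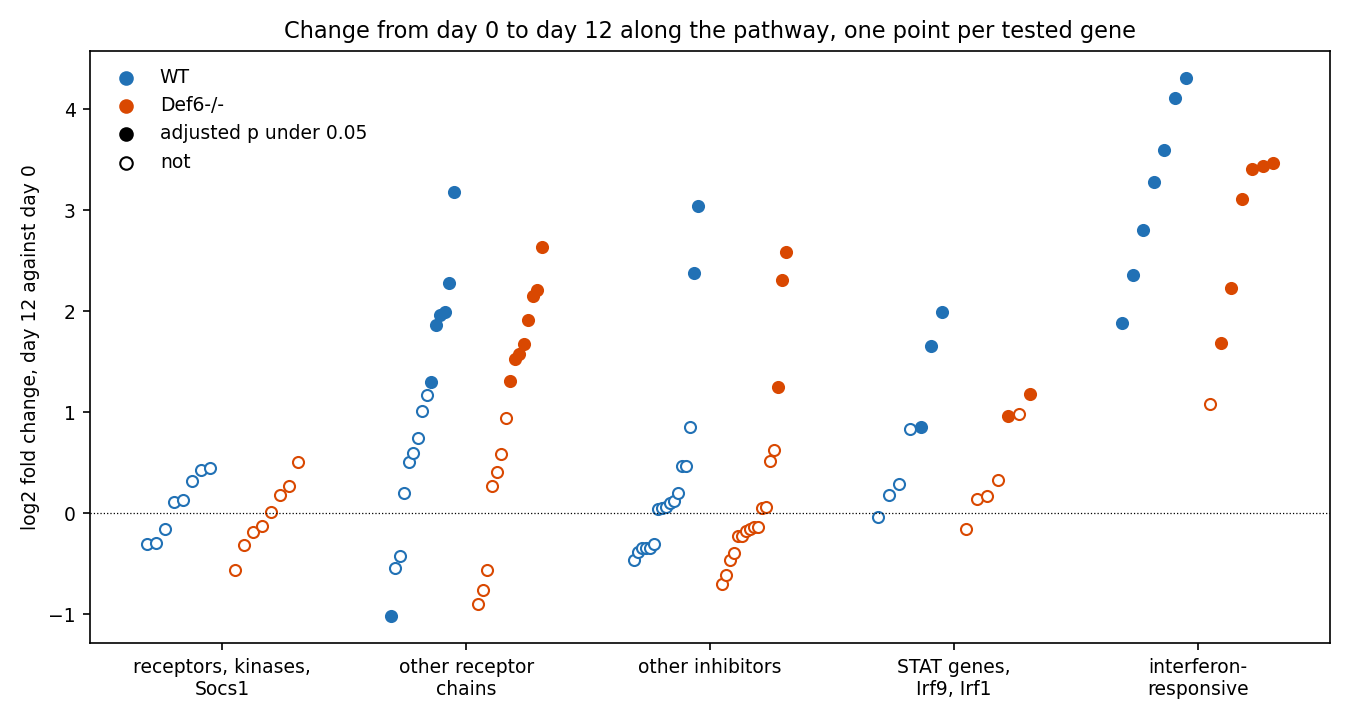
Log2 fold change from day 0 to day 12 (y axis) for each tested gene of 5 lists, in WT (blue) and Def6-/- cells (orange), filled where the adjusted p is under 0.05. The receptors, kinases and Socs1 lie between -0.56 and 0.51 with no filled point, while the interferon-responsive genes reach 4.31.

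Interferon-responsive genes stood at the far end. All 7 that were tested among the 10 listed rose in WT cells and 6 in Def6-/- cells (Cxcl10, at 1.08, did not pass there). Of all tested genes 18.3% and 16.8% passed, in either direction. The median log2 fold changes of the 7 were 3.28 in WT (3.06 without WT replicate 1) and 3.11 in Def6-/- cells. This list, like the others, was chosen with earlier results of these data known. Isg15, which encodes a ubiquitin-like protein, went from 17.4 and 6.01 normalized CPM to 78.1 and 152 in WT and from 1.13 and 5.11 to 42.3 and 35.4 in Def6-/- cells. Irf7, a factor that amplifies interferon production, rose by 2.36 and 2.22 on the log2 scale. At day 12 Irf7, Isg15, Ifit3 and Oasl2 met the unadjusted rule for being lower in Def6-/- cells, Irf7 with a log2 fold change of -1.43. At day 0 Irf7 and Isg15 met it. Each of these had an adjusted p of 0.908 or more by limma. Of all tested genes 1.4% met the rule at day 12 and 2.3% at day 0, in either direction. Without WT replicate 1, it was Irf7 and Ifit1 that met the rule at day 0. The 14 tested macrophage markers also all had a negative log2 fold change in Def6-/- against WT cells at day 12 (median -0.32), though none met the rule. Ptprc, among these 14, has values at day 12 that are not all whole reads. Summed macrophage markers were then at 6340 and 3190 normalized CPM in WT and at 3950 and 3480 in Def6-/- libraries. WT replicate 2 was thus below both Def6-/- libraries. The part of these markers in the differences was not tested. Reads of Ifit3 may be shared with near-identical neighboring copies.

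Of 17 other inhibitors, 2 rose in WT and 3 in Def6-/- cells and none fell by the test, shares close to or below the 18.3% and 16.8% of all tested genes. Usp18, which displaces Jak1 from Ifnar2 and is itself interferon-responsive, went from 2.37 and 3.18 normalized CPM to 21.8 and 40.6 in WT (log2 fold change 3.04, adjusted p = 0.00680 by limma) and from 0.376 and 4.09 to 12.7 and 11.5 in Def6-/- cells (2.31, adjusted p = 0.0248). Ptpn6, a phosphatase known best from blood cells, rose by 2.38 and 2.58 on the log2 scale. Socs2, which restrains growth hormone signaling, rose by 1.25 in Def6-/- cells (adjusted p = 0.0349), and its value of 0.85 in WT did not pass the test with all libraries but did without WT replicate 1 at day 0 (1.36, adjusted p = 0.00281). Cish met the unadjusted rule for the interaction (0.93), but not without that library (0.83). In the fit without it, Pias3 passed as higher at day 12 in Def6-/- cells. Usp18 then met the unadjusted rule as lower in Def6-/- than in WT cells at day 12. Neither Socs1 nor Socs3, the Pias genes, Ptpn1 or Ptpn2 passed the test in any of the 5 comparisons with all libraries.

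The receptor chains of other cytokines that use the same kinases included genes that passed the test. Of 15 tested chains among 21, 6 rose and 1 fell in WT cells, and 8 rose in Def6-/- cells, where 18.3% and 16.8% of all tested genes passed. Their median log2 fold changes were 1.01 in WT (0.69 without WT replicate 1 at day 0) and 1.30 in Def6-/- cells. Il11ra1, the interleukin-11 chain, rose by 1.86 in WT and 2.21 in Def6-/- cells, and Lifr, the leukemia inhibitory factor chain, by 2.28 (1.64 without WT replicate 1 at day 0) and 2.15. Il10ra, Csf2ra and Il6ra also rose in both genotypes, Csf2rb and Il2rg rose in Def6-/- cells, and Lepr fell by 1.02 in WT cells. Il10ra, Csf2ra, Csf2rb and Il2rg, like Ptpn6, are widely known from blood cells, and the macrophage markers rose between the same groups. The part of macrophages in these changes was not tested. Csf2rb met the unadjusted rule at day 12 (0.77, higher in Def6-/- cells), and some of its reads may belong to its near copy Csf2rb2. Lifr also met that rule as higher in Def6-/- cells at day 12 when WT replicate 1 at day 0 was left out.

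Il6st, the shared chain of the interleukin-6 family, had a pattern by library like that of Jak1. It was at 283 and 829 normalized CPM in WT cells at day 0, at 546 and 862 in Def6-/- cells at day 0, and between 360 and 409 at day 12. It did not pass the test with all libraries (-0.42 in WT, -0.76 in Def6-/- cells). When WT replicate 1 at day 0 was left out, Il6st and Osmr passed the test as lower and Ghr as higher at day 12 in both genotypes.

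3 of the 4 interferon receptor genes lie close together, within 192841 bases of chromosome 16, and the cluster holds a further receptor gene, Il10rb. In GRCm38 the order along the plus strand is Ifnar2 (chr16:91372783-91405589), Il10rb (chr16:91406164-91425834), Ifnar1 (chr16:91485238-91507441) and Ifngr2 (chr16:91547072-91565623). Il10rb encodes the chain shared by the receptors of interleukin-10, interleukin-22 and the lambda interferons. It went from 24.5 and 20.5 normalized CPM at day 0 to 64.9 and 49.4 at day 12 in WT cells, and from 19.2 and 22.5 to 51.7 and 53.8 in Def6-/- cells.

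Il10rb thus rose by 1.30 on the log2 scale in both genotypes (adjusted p = 0.00480 in WT, with 1.42 without WT replicate 1 at day 0, and 0.00471 in Def6-/- cells by limma), while Ifnar2 before it, with 0.45 and 0.51, and Ifnar1 and Ifngr2 after it did not pass the test. The difference between Il10rb and its neighbors was not itself tested. A read-through transcript (Gm21970) joins the pair on the same strand, sharing 315 exon bases with Ifnar2 and 569 with Il10rb. No gene of this name is among the 24421 measured. Reads of either could thus have been set aside as ambiguous only if the annotation used for counting held it under another name.

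**Figure D5:**
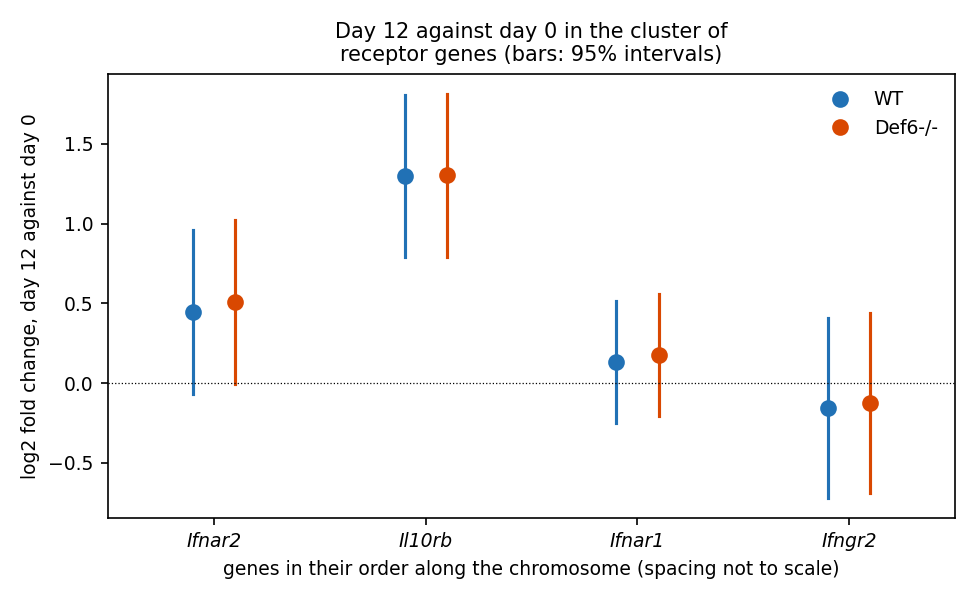
Log2 fold change from day 0 to day 12 with 95% intervals for 4 receptor genes in their chromosomal order, in WT (blue) and Def6-/- cells (orange). Il10rb, at 1.30 in both, lies above 0, and the intervals of Ifnar2, Ifnar1 and Ifngr2 include 0.

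The remaining members lie alone. Ifngr1 is at chr10:19591949-19610229, Jak1 at chr4:101152367-101265282, Jak2 at chr19:29251828-29313080, Tyk2 at chr9:21104068-21131243 and Socs1 at chr16:10782240-10785536, far from the receptor cluster on the same chromosome. Each value in the data is a sum over the exons of a gene, so that splice forms, among them the soluble form of Ifnar2, were not separated.

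For each gene the most similar profiles were looked up among the 12340 other tested genes, by Pearson's r of log2 normalized CPM over the 8 libraries. These are descriptions, picked as the highest of many, and the libraries share days, genotypes and the WT library that stands apart. Jak1 was most like Fn1, which encodes fibronectin (r = 0.991), and Ythdc2 (0.990). Fn1 was at 7030 and 19000 normalized CPM in WT cells at day 0 and at 7520 and 7370 at day 12, against 14900 and 15700 and then 7390 and 8260 in Def6-/- cells, and so it also had its low day 0 value in WT replicate 1. Ifnar1 was nearest to Ivd (0.990), Ifnar2 to Fabp5 (0.993), Ifngr1 to Vps37a (0.975) and Ifngr2 to Mplkip (0.988). Tyk2 was nearest to Khnyn (0.979), Socs1 to Slc16a13 (0.967) and Jak2 to Irf2bpl (0.921), the lowest best match of the 8.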

How the data were processed

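RNA was measured in 8 libraries. According to the labels and methods, the authors selected poly-A RNA, trimmed reads with fastp, used HISAT2 for alignment to mm10 and HTSeq for counting, and deposited values that edgeR had turned into CPM, relative to every read handled, with those outside genes in the total. Tool versions, annotation and strand setting are not given in the sources used here. Whole reads were recovered for 99.957% of 114821 positive values (tolerance 0.02 reads). The 49 others fall in 9 macrophage and osteoclast genes, were kept out of marker sums, and touch no gene discussed at length. The 9 include Ptprc, which is counted among the tested macrophage markers.

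CPM were rescaled with TMM factors to the reads on genes. A gene was kept if its deposited CPM averaged 1 or more in any group. Log2(normalized CPM + 1) was fitted with limma 3.58.1 (trend, 4 group means, two-sided, Benjamini-Hochberg over all kept genes) in R 4.3.3, and edgeR 4.0.16 was run on recovered reads as an alternative. Fold changes on this scale understate those of low genes. For the genotype comparisons and the interaction, the study's rule (unadjusted p under 0.05 with over 1.2-fold change) defined a call. The scripts were tested on simulated data. The labels and methods do not say that same-numbered libraries share a litter or day, so no block was used. The p-values measure the spread between cultures called biological replicates.

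The genes and lists were chosen with earlier results of these data known. Named genes are the 8 members, listed pathway genes that passed a test or that complete a small count, the most similar profiles of each member, and Def6. Stat3, Stat5b, Stat6, Socs3, Il6st, Cxcl10 and Fn1 values were singled out after they were seen. Gene positions and exon lengths come from GENCODE M21 (GRCm38), promoters from RefSeq GRCm38.p6. An item of the pathway is not reported here.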

Additional observations from a re-analysis of the deposited data

Results flagged for a closer look

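Jak2 drew attention because its libraries moved in opposite directions in the genotypes. Both WT libraries at day 12 (52.2 and 54.9 normalized CPM) were above both at day 0 (47.0 and 51.9), and both Def6-/- libraries at day 12 (56.7 and 44.0) were below both at day 0 (62.4 and 62.3). The difference between the 2 changes was -0.43 on the log2 scale (95% interval -1.06 to 0.20) and did not pass the test (adjusted p of 1 by limma). Without WT replicate 1 at day 0 it was -0.36.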

How the results depend on the processing

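No member passed in any of the 5 comparisons with a pseudocount of 0.25, no filter on low genes, CPM as deposited, edgeR on recovered reads, or the replicate block. In a fit of only the 2 groups compared, 2 members passed for Def6-/- days (Ifnar2 and Jak1). Leaving out 1 library at a time gave 0 to 2 members for WT days, 0 to 1 for Def6-/- days, 0 to 3 for genotype at day 0 and 0 to 1 for the interaction. The 3 at day 0 (Ifngr2, Jak1 and Tyk2), the 2 in WT (Ifngr2 and Tyk2) and the 1 for the interaction (Jak1) came without WT replicate 2, with WT replicate 1 then the only WT library at day 0. A lone library was assumed to vary like the others.

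Of 552 refitted fold changes of members, 537 kept their side of the threshold, 11 passed it newly and 4 turned when a library was left out, with 1 or both values further from 0 than the standard error with all libraries. These were Jak1 in WT (range -0.72 to 0.13, turned without WT replicate 2 at day 0), Socs1 in Def6-/- cells (-0.37 to 0.40, turned without Def6-/- replicate 2 at day 12), and Tyk2 at day 0 (-0.01 to 0.58) and Ifngr2 in the interaction (-0.35 to 0.41), both turned without WT replicate 1. The 537 include 44 smaller sign changes, with both values within that error of 0, among them Ifngr2 in WT (0.23) and Jak1 at day 0 (-0.22), both without WT replicate 1.

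Counts over all genes moved more. With only 2 groups fitted they were 1093 (WT days), 3931 (Def6-/- days), 100 (genotype, day 0) and 558 (day 12), and with no filter 459 (genotype, day 12) and 326 (interaction). Leaving out 1 library gave 838 to 5701, 927 to 4331, 154 to 4586, 108 to 458 and, for the interaction, 88 to 3328. Of the calls at day 0, 122 of 284 were higher in Def6-/- cells, against 138 of 191 with CPM as deposited and 96 of 306 with edgeR, and at day 12 it was 100 of 173 against 119 of 170. The replicate block gave 2552, 2280, 360, 202 and 169 genes. Same-numbered libraries deviated together with r = 0.327 between the day 0 groups and 0.0369 between the day 12 groups. At day 0, 11.8% of tested genes differed more than 2-fold between the genotypes in replicate 1 and 1.94% in replicate 2. Between libraries of unlike number it was 17.7% (WT replicate 1 and Def6-/- replicate 2) and 4.54% (WT replicate 2 and Def6-/- replicate 1). Whether same-numbered libraries share an effect was not tested.

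With 2 libraries per group and 32 to 81 reads in a library, Socs1 has the least precise values of the 8. The cause of the shifts was not tested.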
